A study of Mus musculus with 94 samples.

Results

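The Krüppel-like factors (KLFs) examined here were the 8 genes Klf2, Klf3, Klf4, Klf6, Klf7, Klf9, Klf10 and Klf13, taken by name from the 16069 genes of the deposited matrix, and all 8 had a row. They were read in primary PV-ADSCs, the adipose-derived stem cells of perivascular adipose tissue, from mice of strain c57/bl aged 8 weeks. Normal adipose tissue around the thoracic aorta was digested with collagenase I, and single cells were sorted as CD144-/CD45-/CD29+/Sca1+ and sequenced without culture, with SMARTseq v4 libraries made on a Labcyte Echo. Of 94 cells in the series, 85 were in the matrix, and the other 9 were not analysed here. The cells were of a single condition with no treated group, and as no animal was named for a cell they count as 1 sample, so no p value or standard error was computed between cells. By their deposited value of Dcn, the collagen-binding proteoglycan decorin of fibroblast-like cells, 58 cells (1000 or more) formed the stromal class and 27 cells formed the other class.

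KLFs are zinc finger transcription factors that bind GC-rich and CACCC sequences in promoters, and they differ in the cofactors they recruit. Klf2, Klf4, Klf6 and Klf7 belong to the branch known mainly for activation, Klf3 recruits the corepressor CtBP, and Klf9, Klf10 and Klf13 recruit the Sin3A corepressor complex. In the vessel wall, Klf2 and Klf4 are known as endothelial factors induced by laminar flow, and Klf4 also as a repressor of smooth muscle genes. In adipose tissue, several members are known to promote or hinder the step from preadipocyte to adipocyte.

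The class labels were checked against markers that the rule did not use. All 12 stromal markers, such as Col3a1 and Lum, were higher in the stromal class by 1 or more in mean log2(value + 1), and the 14 endothelial markers found in at least 3 cells, such as Cldn5 and Flt1, were all lower by 1 or more. Of the 27 other cells, 24 held 3 or more of 15 endothelial markers at 10 reads or more. The remaining 3 other cells held between 285 and 405 genes and at most 1 such marker. Cdh5, the gene of the sorted-out antigen CD144, was at 100 reads or more in 20 of the 27. The sort used an antibody against the CD144 protein, whereas these are reads of mRNA, so they do not test the label of the sort. The authors also reported Cdh5 expression in these sorted cells, mainly in a single cluster. In the stromal class, 1 cell held 69 reads of Dcn and none of the 12 stromal markers at 100 reads. Of the 10 immune markers, 2 had a row and 0 of these were above 0 in 3 cells or more. Of the mesothelial list, Wt1 was above 0 in 20 stromal and 0 other cells. The rest of that list was rare, with Msln, Upk3b and Krt8 in 2 stromal cells each and Lrrn4 and Krt19 in 3 each. The contractile smooth muscle genes Acta2, Tagln, Myh11 and Cnn1 had no row and were not analysed here. Recovered reads per cell, which are whole reads worked out from the deposited values, ranged from 1146945 to 4776510. Stromal cells held between 850 and 4148 genes above 0 (median 2813), and other cells between 285 and 2278 (median 1416).

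The promoters of 3 members were printed because the results turn on Klf4 and Klf6, the members found in most cells, and on Klf2, the member with the same share in both classes. Each line gives the 250 bases before the start of the gene, from RefSeq (GRCm38.p6), and 7 of the 8 members had an entry. The Klf2 window lies at chr8:72318812-72319061 on the plus strand, Klf4 at chr4:55532476-55532725 on the minus strand, and Klf6 at chr13:5861239-5861488 on the plus strand. Capitals mark matches, on either strand, to the CCAAT box, to the MEF2 consensus (searched by its full degenerate form), to TGACG, the core of a cAMP response element, or to the TATA sequence TATAAA, and the matches of different motifs were counted separately where they overlapped.
Klf2 promoter: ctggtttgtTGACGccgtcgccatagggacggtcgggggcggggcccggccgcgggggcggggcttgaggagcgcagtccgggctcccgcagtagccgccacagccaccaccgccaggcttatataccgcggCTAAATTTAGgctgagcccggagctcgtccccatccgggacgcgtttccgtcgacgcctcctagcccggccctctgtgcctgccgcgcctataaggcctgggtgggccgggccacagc
Klf4 promoter: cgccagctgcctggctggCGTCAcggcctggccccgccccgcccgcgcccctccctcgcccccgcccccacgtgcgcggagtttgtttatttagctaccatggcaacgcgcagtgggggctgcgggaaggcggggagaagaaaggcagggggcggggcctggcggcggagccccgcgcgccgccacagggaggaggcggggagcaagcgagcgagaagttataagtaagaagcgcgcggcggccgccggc
Klf6 promoter: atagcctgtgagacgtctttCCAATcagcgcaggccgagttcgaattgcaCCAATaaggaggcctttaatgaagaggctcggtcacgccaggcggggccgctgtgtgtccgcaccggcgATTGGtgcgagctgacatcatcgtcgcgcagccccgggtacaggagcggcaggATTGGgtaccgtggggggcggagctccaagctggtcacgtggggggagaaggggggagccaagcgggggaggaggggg
The MEF2 consensus, the target of the kinase route by which flow is known to induce Klf2, was found in the promoter of Klf2 and in no other of the 7, compared with 2.92% of 32851 promoters. CCAAT was found 4 times in Klf6 and also in the promoters of Klf9 and Klf13, compared with 33.8% of promoters. TGACG was found in the promoters of Klf2, Klf4, Klf9 and Klf13, compared with 17.8%. The GC box GGGCGG was found in 6 of 7, compared with 32.7%, and CACCC, a sequence that KLFs bind, in 5 of 7, compared with 52%. TATAAA was found in 0 of 7, compared with 12.4%. The E box CACGTG was found in Klf4 and Klf6, compared with 6.02%, whereas TGACGTCA (1.55%), the CArG box (1.47%) and GGAAGT (19.7%) were each found in 0 of 7. The GC content was 71.2% for Klf2, 74% for Klf4 and 64.8% for Klf6, where the median of all promoters was 52.4%. A match describes letters in a window and not binding.

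Klf4 and Klf6 were the members found in most cells. Of 85 cells, Klf6 was above 0 in 79, Klf4 in 65, Klf9 in 44, Klf3 in 35, Klf7 in 34, Klf13 in 33, Klf10 in 30 and Klf2 in 19. Of all genes in the matrix, 0.38% were above 0 in 79 or more cells, 1.82% in 65 or more and 21.5% in 19 or more. In the plot of values, each member had cells at 0 in both classes, so the ranges of the classes overlapped for all 8.

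**Figure D1:**
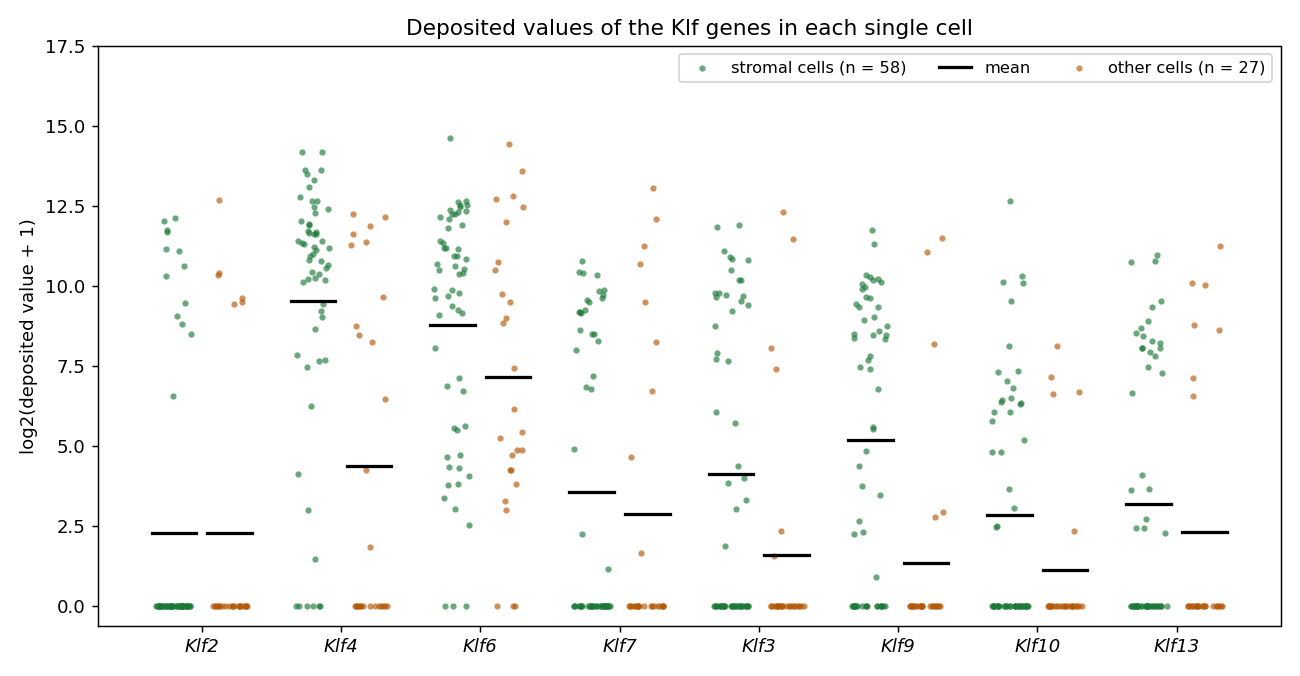
Values of each Klf gene as log2(deposited value + 1) in each of 58 stromal and 27 other cells, with a black line at the mean of each class (1 sample, no test). Klf4 has the widest gap between the means, 9.52 and 4.38, whereas the means of Klf2 are both 2.30.

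Among the activators, Klf4, a stemness and reprogramming factor, differed most between the classes. Its deposited value ranged from 0 to 18828 (median 2003) in stromal cells and from 0 to 4900 (median 0) in other cells. It was above 0 in 52 of 58 stromal cells (89.7%, exact interval 78.8 to 96.1%) and in 13 of 27 other cells (48.1%, 28.7 to 68%). Most stromal cells were thus high, and about as many other cells were at 0 as held the gene. At 100 reads or more, these were 49 stromal cells (84.5%) and 10 other cells (37%). The mean log2(value + 1) was 9.52 ± 4.10 (SD over cells, n = 58) compared with 4.38 ± 5.14 (n = 27), a difference of 5.14.

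Klf6, a factor induced by injury and in early adipocyte differentiation, was found in nearly every cell of both classes. It was above 0 in 55 of 58 stromal cells (94.8%, 85.6 to 98.9%) and in 24 of 27 other cells (88.9%, 70.8 to 97.7%). The classes came apart at higher read numbers, with 41 stromal cells (70.7%) and 12 other cells (44.4%) at 100 reads or more. In both classes, Klf6 thus had many cells with few reads, namely 14 stromal and 12 other cells with reads below 100. Its deposited value ranged from 0 to 25027 (median 1147) in stromal cells and from 0 to 22341 (median 70.9) in other cells. The mean was 8.78 ± 3.74 compared with 7.18 ± 4.34, a difference of 1.60. In the 3 other cells that lacked endothelial markers, Klf6 was the only member found, at 10, 32 and 70 reads. Dcn itself was above 0 in all 85 cells and below 100 reads in 25 of the 27 other cells (median of the class 14 reads). Whether low read numbers of a Klf gene came from the cell itself was not tested.

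Klf2, known for quiescence of endothelium under flow, was the least often found member and had the same mean level in both classes. It was above 0 in 13 of 58 stromal cells (22.4%, 12.5 to 35.3%) and in 6 of 27 other cells (22.2%, 8.62 to 42.3%). All 6 held 3 or more endothelial markers, as did 24 of the 27, and every other member but Klf6 was likewise found only in such other cells. Where it was found it was high, from 94 to 4485 reads in stromal cells (median 1571) and from 702 to 6635 reads in other cells (median 1043), so Klf2 was either at 0 or well above the lowest read numbers. The mean was 2.30 ± 4.38 compared with 2.30 ± 4.41.

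Klf7, known from neuronal development and as an inhibitor of adipocyte differentiation, was above 0 in 25 stromal cells (43.1%, 30.2 to 56.8%) and in 9 other cells (33.3%, 16.5 to 54%). Its highest deposited value was 1761 in stromal and 8496 in other cells, and the median was 0 in both. The difference in means was 0.70, with 3.59 ± 4.44 compared with 2.88 ± 4.64.

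Among the repressors, Klf9, a glucocorticoid-induced member, had the largest gap in share. It was above 0 in 39 of 58 stromal cells (67.2%, 53.7 to 79%) and in 5 of 27 other cells (18.5%, 6.30 to 38.1%), a gap of 48.7 points. At 100 reads or more it was in 28 stromal cells (48.3%) and in 3 other cells (11.1%). Its deposited value ranged from 0 to 3435 (median 78.1) in stromal cells and from 0 to 2878 (median 0) in other cells. The means were 5.21 ± 4.31 and 1.35 ± 3.33, a difference of 3.86. As for Klf4, the exact intervals of the 2 shares did not overlap, at either level of reads. They cover counting error only, and the share of all genes with intervals apart was not computed.

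Klf3, a CtBP-binding repressor known to hold back adipocyte differentiation, was above 0 in 29 stromal cells (50%, 36.6 to 63.4%) and in 6 other cells (22.2%, 8.62 to 42.3%). Its deposited value ranged from 0 to 3830 (median 1.35) in stromal cells and from 0 to 5055 (median 0) in other cells, so its single highest cell was in the other class. The means were 4.13 ± 4.64 and 1.60 ± 3.63, a difference of 2.53.

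Klf10, known as a gene induced early by TGF-β, was mostly found at low read numbers. It was above 0 in 25 stromal cells (43.1%, 30.2 to 56.8%) and in 5 other cells (18.5%, 6.30 to 38.1%). The median of the cells that held it was 72 reads in stromal and 117 reads in other cells, and 12 stromal and 3 other cells reached 100 reads. The means were 2.86 ± 3.70 and 1.15 ± 2.61, a difference of 1.71, and 1 stromal cell held 5765 reads. At 100 reads or more, the gap in share fell from 24.6 to 9.58 points.

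Klf13, known from T lymphocytes and heart development, was above 0 in 26 stromal cells (44.8%, 31.7 to 58.5%) and in 7 other cells (25.9%, 11.1 to 46.3%). Its highest deposited value was 2010 in stromal and 2454 in other cells. The means were 3.19 ± 4.01 and 2.31 ± 4.07, a difference of 0.88.

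**Figure D2:**
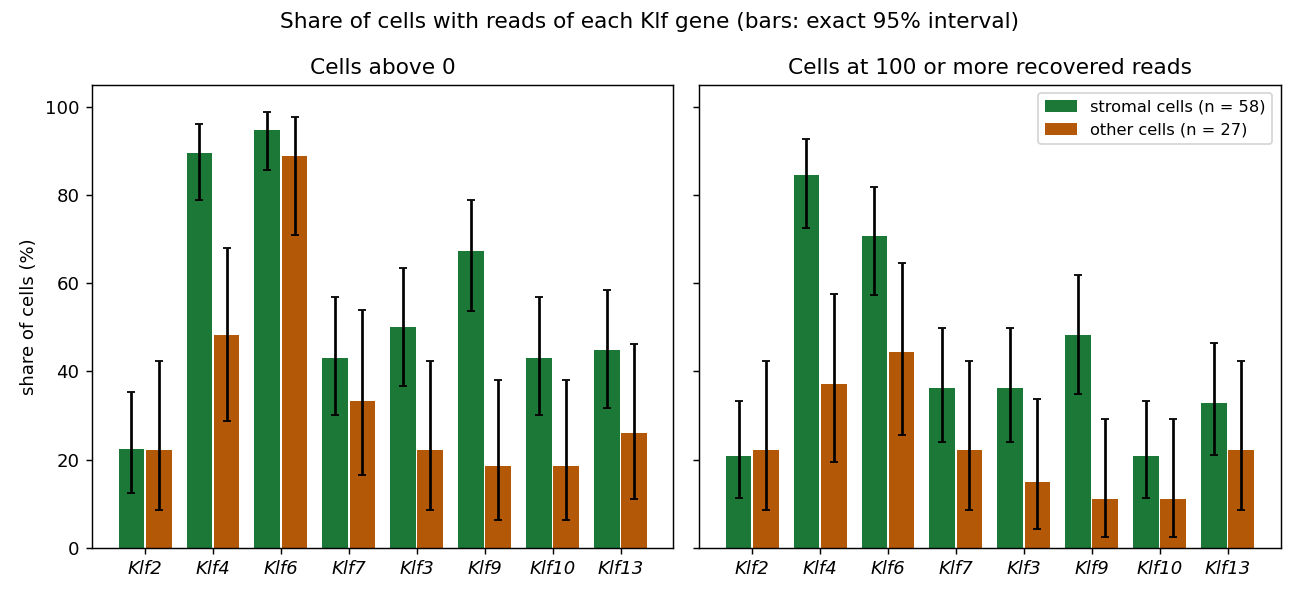
Share of cells (%) above 0 (left) and at 100 or more recovered reads (right) for each Klf gene in 58 stromal and 27 other cells, with exact 95% intervals that cover counting error only. The intervals of the 2 classes are apart for Klf4 and Klf9 in both panels, and overlap for the other 6 genes. The share of all genes with intervals apart was not computed.

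The members were set against all genes, since stromal cells held more genes of any kind. With a call set at a difference of 1 in mean log2(value + 1), 5 of 8 members (Klf3, Klf4, Klf6, Klf9 and Klf10) were higher in stromal cells, compared with 35.6% of the 11478 genes above 0 in at least 3 cells, and 0 of 8 were lower, compared with 2.84%. All 8 members were above 0 in 19 cells or more. Among genes found in 10 cells or more, 60.3% were higher by 1 or more and 3.69% lower, so the members' count of 5 was near that share. The share among genes found in 19 cells or more was not computed. With a call set at 20 points of share, 4 of 8 (Klf3, Klf4, Klf9 and Klf10) were found in a larger share of stromal cells, compared with 25.4% of genes. In a smaller share were 0 of 8, compared with 1.11%. These percentages are over genes above 0 in at least 3 cells. They were not computed for genes found in 10 cells or more, so no excess of the members can be read from them. The median difference was 1.66 over the members and 0.64 over all genes. Klf4 was at percentile 97.7 of these 11478 genes by its difference and Klf9 at 95.3, whereas Klf2 was at 16.4 and Klf7 at 53.3. All 8 members were above 0 in a larger share of stromal cells, and so were 85.1% of genes. The medians, the percentiles and the 85.1% are also over genes above 0 in at least 3 cells. They were not computed for genes found in 10 cells or more, so the members' ranks among such genes are not known.

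**Figure D3:**
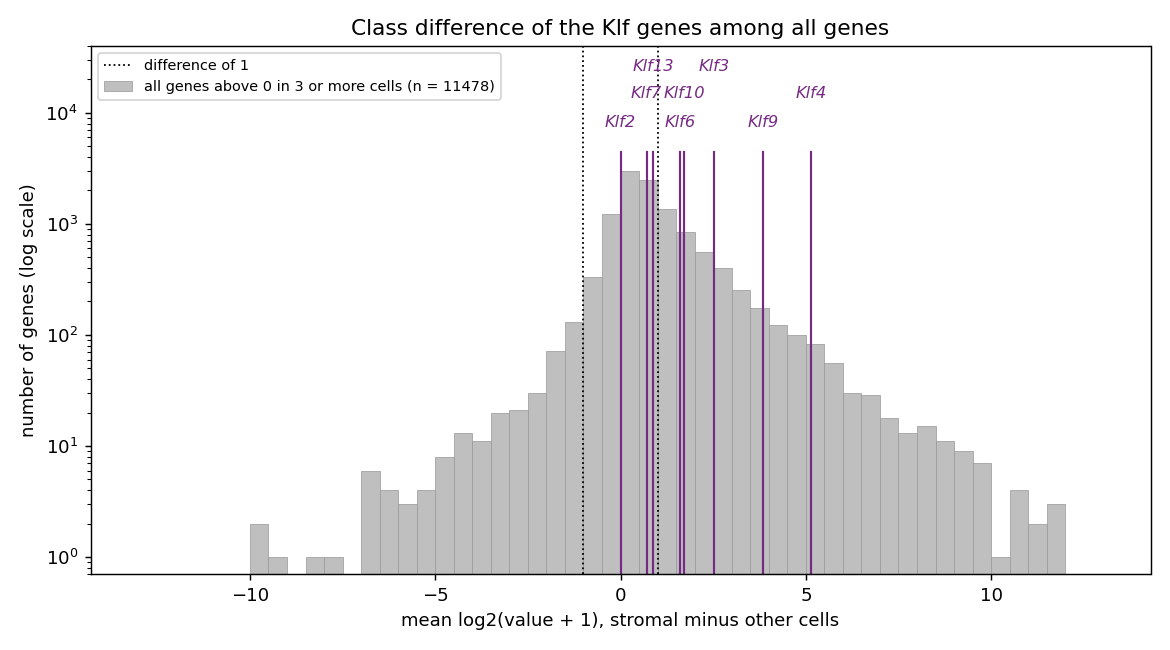
Difference in mean log2(value + 1), stromal minus other cells, as a histogram of 11478 genes (number of genes on a log axis), with a purple line for each of the 8 Klf genes and dotted lines at differences of 1 in either direction. Klf4 (5.14) and Klf9 (3.86) lie in the right tail, and Klf2 (0.00), Klf7 (0.70) and Klf13 (0.88) lie between the dotted lines.

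In an alternative chosen after seeing the data, only cells in the range of 850 to 2278 genes, which both classes share, were compared, leaving 9 stromal and 24 other cells. Klf4 then differed by 5.36, with 8 of 9 stromal and 13 of 24 other cells above 0, and Klf6 by 1.75, with 9 of 9 compared with 21 of 24. For Klf9 the difference was 0.70, with 3 of 9 compared with 5 of 24, and for Klf10 it was 0.25. Klf3 differed by 1.90. Klf7 was lower in stromal cells by this measure, at -3.11, with 1 of 9 compared with 9 of 24, and Klf2 was at -1.34. Among all genes in these cells, 20.2% were higher by 1 or more and 9.98% lower. The 9 stromal cells are few and include the one without stromal markers, so the exact values are uncertain. With that cell and the 3 other cells without endothelial markers left out of the full set, 5 of 8 members were again higher by 1 or more, and the differences were 4.69 for Klf4 and 3.78 for Klf9.

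The level in the cells that held a gene was compared separately from how often it was found. Among cells above 0, the mean log2(value + 1) of Klf4 was higher in stromal cells by 1.52, that of Klf6 by 1.18 and that of Klf3 by 1.06. For Klf9 and Klf10 this was 0.44 each, with 5 other cells above 0 for each gene. Klf9 thus came apart in the number of cells that held it, whereas its level in those 5 cells (SD 4.24) is too uncertain to compare. For Klf2 it was -0.09, for Klf7 -0.33 and for Klf13 -1.80. The other cells above 0 were also few for Klf2 and Klf3 (6 each), Klf13 (7) and Klf7 (9). The median over 2206 genes above 0 in at least 5 cells of each class was -0.20.

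Per length of the longest coding transcript, Klf4 had the highest mean level in stromal cells and Klf6 in other cells. Levels were compared between genes as RPKM, recovered reads scaled to a common total per cell and to the kilobases of the longest coding transcript. In stromal cells the mean RPKM was 370 for Klf4, 180 for Klf6, 82.7 for Klf2, 36.8 for Klf3, 32.4 for Klf9, 20.9 for Klf10, 12.4 for Klf7 and 9.53 for Klf13. In other cells it was 193 for Klf6, 103 for Klf4, 82.7 for Klf2, 29.4 for Klf7, 27.2 for Klf3, 17.4 for Klf9, 12.6 for Klf13 and 4.18 for Klf10. The SD over cells was larger than the mean for each gene in each class (424 for Klf4 in stromal cells), so neighbours in these orders did not differ beyond the spread. With the shortest coding transcript, Klf4 still had the highest mean in stromal cells (2146), but Klf3 (326) then stood above Klf6 (180). In other cells Klf4 (599), Klf7 (407) and Klf3 (241) then all stood above Klf6 (193). The shortest transcripts of Klf4 (522 nt), Klf3 (590 nt) and Klf7 (553 nt) are much shorter than their longest (3029, 5221 and 7662 nt). Klf2, Klf6 and Klf9 have 1 coding transcript each, so their values did not change. Whether such short entries are complete was not checked, so no order of levels can be read from them.

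Cell by cell, the member with the most reads per kilobase of the longest transcript was Klf4 in 34 of 58 stromal cells, Klf6 in 9, Klf2 in 8, Klf9 in 4, Klf3 in 2 and Klf10 in 1. In other cells it was Klf6 in 12 of 27, Klf4 in 7, Klf2 and Klf13 in 2 each, and Klf3, Klf7 and Klf10 in 1 each, and 1 cell held no member. With the shortest transcript, which has the limit given above, it was Klf4 in 39 stromal cells, and Klf4 and Klf6 in 8 other cells each. With the longest, the leading member made up a median of 57.8% of the members' reads per kilobase in stromal cells and 85.9% in other cells, or 78.8% in the other cells with endothelial markers. It held over 50% in 42 of 58 stromal cells and in 23 of the 26 other cells with a member. The part of the lower number of genes in other cells was not tested.

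**Figure D4:**
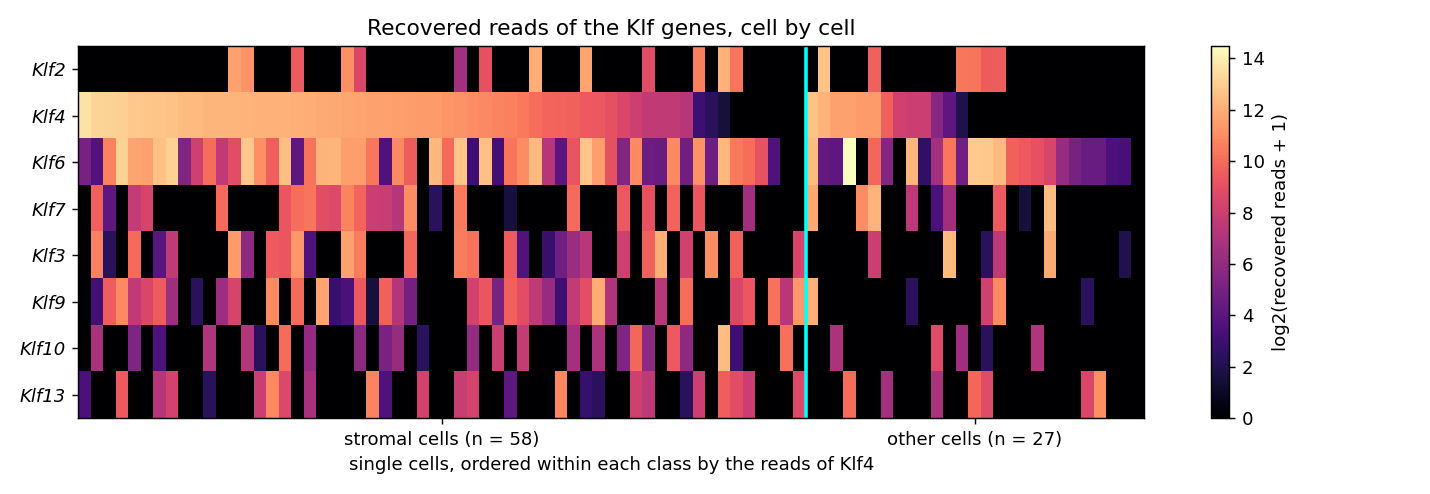
Heat map of log2(recovered reads + 1) of the 8 Klf genes (rows) in 58 stromal and 27 other cells (columns, ordered within each class by Klf4), with a cyan line between the classes. Reads of Klf4 run through 52 of the stromal cells and 13 of the other cells, and those of Klf9 through 39 and 5. Klf2, Klf3, Klf7, Klf10 and Klf13 are each in 29 or fewer of the stromal cells.

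Stromal cells held between 1 and 7 members (median 5) and other cells between 0 and 6 (median 3). At 100 reads or more, the medians were 4 and 2. No cell held all 8, and 2 cells, both stromal, held 7. The number of members was larger in cells with more genes, with a Pearson's r of 0.48 (Spearman's rho 0.40) over 58 stromal cells and 0.55 (0.44) over 27 other cells. With the recovered reads of a cell, r was 0.15 and 0.05. These are descriptions over cells of 1 sample, in which the members are part of the genes counted. The summed recovered reads of the members lay between 223 and 11038 CPM in stromal cells (median 1964) and between 0 and 9425 CPM in other cells (median 474). In the 24 other cells with endothelial markers the median was 1138 CPM.

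**Figure D5:**
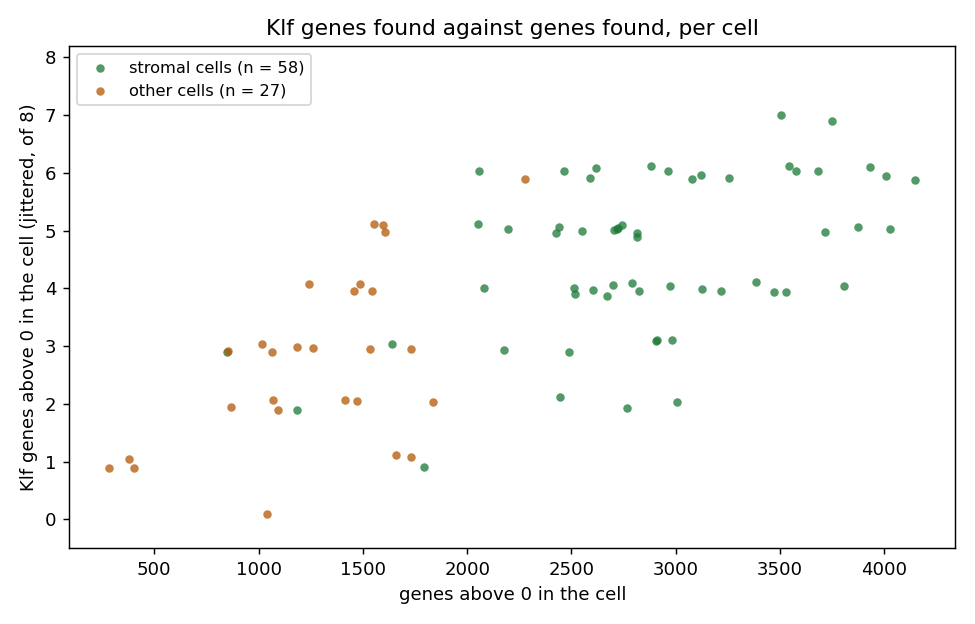
Number of the 8 Klf genes above 0 (vertical axis, jittered) against the number of genes above 0 in the cell, for 58 stromal and 27 other cells. Stromal cells lie between 850 and 4148 genes with 1 to 7 members, and other cells between 285 and 2278 genes with 0 to 6.

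Within the stromal class, the members varied largely apart from each other. Over 28 pairs and 58 cells, the median r of log2(value + 1) was 0.01, the lowest -0.19 and the highest 0.28, and 16 pairs were positive. The highest values were those of Klf4 with Klf6 and of Klf2 with Klf3 (0.28 each), and the lowest that of Klf9 with Klf10. At 100 reads or more, Klf4 and Klf6 were found together in 36 of 58 stromal cells and 4 of 27 other cells, whereas Klf9 and Klf10 were together in 4 stromal cells and 0 other cells. Pairs of a gene group share the factors by which the authors scaled their values in a cell, as Klf4 and Klf6 do, and with recovered reads as CPM the r of that pair was 0.26. In counts as sparse as these, r of this size is no more than a description.

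The genes most like each member were taken as the 2 with the highest r over 58 stromal cells among 5382 genes above 0 in at least 10 of them. They included Arhgap20 (0.48) for Klf3, Cd248 (0.52) after the pseudogene row Gm15427 (0.54) for Klf4, and Rpl37a (0.50) and Maf (0.44) for Klf6. Klf10 was nearest to Ube2g1 (0.57) and Gxylt2 (0.55), and Stx5a (0.43) was among those nearest to Klf13. Klf2 was nearest to Gm44389 and Srp72 (0.55 each), Klf7 to Tnxa (0.56) and Gm8121 (0.52), and Klf9 to Rpl21-ps8 (0.49) and Rpl21 (0.45). Rows of pseudogenes and ribosomal protein genes share reads with near-identical copies and are uncertain. With so many genes searched, the highest r of any gene is raised by the search. Spearman's rho was lower for Klf4 with Gm15427 and Cd248 (0.31 each) and for Klf6 with Rpl37a (0.33) and Maf (0.36). It was above r for Klf2 with Gm44389 (0.56) and Srp72 (0.58), Klf3 with Arhgap20 (0.49) and Klf10 with Gxylt2 (0.56).

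Most relatives of the members were found in few cells or had no row. Of 18 other KLF and Sp genes, 7 had a row and 3 were above 0 in at least 3 cells, of which Sp3 (1.63) and Sp1 (1.12) were higher in stromal cells by 1 or more, a call that 35.6% of genes met. Sp3 was above 0 in 17 stromal and 3 other cells, and Sp1 in 13 and 2. Klf11, the nearest relative of Klf10, was above 0 in 4 stromal and 0 other cells, Klf12 in 2 stromal cells, and Klf16 in 1 cell of each class. Klf1, Klf5, Klf8, Klf14, Klf15 and Klf17 had no row and were not analysed here.

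Most, but not all, listed partners of KLFs were higher in stromal cells, as were most genes found in 10 cells or more. Of the 11 listed genes tested, 8 were higher there by 1 or more and 0 lower. These calls were met by 35.6% and 2.84% of all genes, and by 60.3% and 3.69% of those above 0 in at least 10 cells. Sap18, of the Sin3A complex, was at 6.30 ± 4.07 compared with 2.26 ± 4.26 in mean log2(value + 1), and Ncor1, a nuclear receptor corepressor, at 4.42 ± 4.06 compared with 1.45 ± 3.0. Sin3b differed by 2.36. Wwp1, which is counted among the 8, differed by 1.77, but it is a ubiquitin ligase known to act on Klf2 and no corepressor. Ctbp1, partner of Klf3, was above 0 in 16 stromal and 3 other cells, and Sin3a in 4 and 2, with a difference of -0.46.

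Genes of the ERK5 and MEF2 route, by which flow is known to induce Klf2 and Klf4, were split. Of 9 genes tested, 4 were higher in stromal cells by 1 or more, 1 was lower and 4 lay between, with a median of 0.63, where 35.6% of all genes were higher and their median was 0.64. The kinase gene Map3k2 (2.07) and Mef2a (2.18) were higher. So were Hdac7 (2.09) and Hdac4 (1.34), whose products are deacetylases that restrain MEF2 factors rather than inducers. Mef2c, a MEF2 factor of endothelium, was lower (-2.07). Mapk7, which encodes ERK5, was above 0 in 3 stromal and 0 other cells.

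A list of endothelial genes tied to Klf2 and Klf4, targets and upstream genes together, was also split. Of 8 tested genes, 3 were higher in stromal cells, 4 lower and 1 between, where 35.6% of all genes were higher and 2.84% lower. Heg1 (5.81), Krit1 (2.03) and Ccm2 (0.49) act upstream of Klf2 in endothelium and are not targets. Heg1 and Krit1 were higher in stromal cells, and Ccm2 lay between. Among the targets tested, only the thrombomodulin gene Thbd (5.78) was higher in stromal cells. Aqp1 (-4.36), the sphingosine phosphate receptor gene S1pr1 (-4.16), Cdkn1a (-2.51) and Tek (-1.77) were lower. Thbd was above 0 in 45 of 58 stromal and 6 of 27 other cells, and S1pr1 in 5 and 13. Nos3, which encodes the endothelial nitric oxide synthase, was above 0 in 0 stromal and 2 other cells.

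Several members belong to the genes that are known to be induced early by stimuli and by tissue dissociation, so such genes were described beside them. Of 29 tested, 20 were higher in stromal cells by 1 or more, 2 lower and 7 between, with a median of 2.17, where 35.6% of all genes and 60.3% of those above 0 in at least 10 cells were higher. Fosb (7.04), Gadd45b (4.67) and Nr4a1 (4.55) were higher, and the heat shock gene Hspa1a was lower (-4.94). The summed reads of the list ranged from 104 to 180208 in stromal cells and from 13 to 122641 in other cells, and their part in the levels of the Klf genes was not tested. Within stromal cells, 23 of 26 such genes had a positive r with Klf6 (median 0.15), compared with 60.8% of all genes (median 0.04), and Zfp36 had the highest (0.43). The number was 22 of 26 for Klf9, 21 for Klf7, 16 for Klf2, 15 for Klf4, 12 for Klf10, 11 for Klf13 and 6 for Klf3 (median -0.17), where between 52% and 70.1% of all genes had a positive r with these members. These r are over sparse counts and are descriptions.

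Target genes of glucocorticoid and of TGF-β, known inducers of Klf9 and Klf10, were described beside them. Of 13 glucocorticoid response genes tested, 7 were higher in stromal cells by 1 or more and 1 lower, a count between the shares of 35.6% and 60.3% in the same groups of genes. The metallothionein genes Mt2 (7.63) and Mt1 (5.78), Errfi1 (5.69) and Cebpd (3.72) were higher, and Sgk1 (-3.25), a standard target of the hormone, was lower. Nr3c1, the receptor gene, was above 0 in 6 stromal and 1 other cells. Of 17 early TGF-β response genes, 10 were higher and 1 lower, which is also no more than the 60.3%. Skil (4.11), Ctgf (4.05) and Ski (3.98), whose products include brakes of the pathway, were higher, and Id1 (-4.20) was lower. Within stromal cells, the median r of these genes was 0.06 with Klf10, compared with 0.05 over all genes, and that of the glucocorticoid genes with Klf9 was 0.05, compared with 0.02.

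Of the adipogenic genes tied to KLFs, 6 were tested, of which 2 were higher in stromal cells and 2 lower, where 35.6% of all genes were higher and 2.84% lower. Cebpd (3.72) and the lipase gene Lpl (3.32) were higher, whereas the fatty acid carrier gene Fabp4 (-9.90) and the adipogenic regulator Pparg (-3.24) were lower. Among the pluripotency factors used together with Klf4, Myc was above 0 in 25 stromal and 0 other cells, for which 0 of 27, read as at most 3 cells, allows a share of up to 11.1%, and Tbx3 was above 0 in 4 cells of each class. Pou5f1, Sox2, Nanog, Lin28a and Esrrb had no row and were not analysed here.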

How the data were processed

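The authors aligned the reads of each cell to mm9 with HISAT2 2.0.5, sorted them with SAMtools 1.4, assembled them with StringTie 1.3.3, and applied quality control and scaling normalization with scater. The counting program is not given in the sources used here. The values the authors deposited are a signal of normalized read counts per gene and cell, and all 85 columns were used. In this matrix, 5404 genes fell into 13 groups, each multiplied by its own factor per cell (0.0157 to 94.5), which the methods do not describe. Recovered reads are values divided by these factors, a step devised after the values were seen, which made 100% of values whole within 0.001 reads. Klf2 was unscaled.

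Values were compared as mean log2(value + 1), without further scaling, as the design provided for a table that is not raw counts. A call was a difference of 1 or 20 points of share. Exact Clopper-Pearson intervals at 95% cover counting error only, and a count of 0 allows 3 cells. PCR reads are not independent molecules. The members and gene lists were chosen with earlier results of these data known. Genes were named by rule: all members, the 2 genes most like each, up to 4 genes per list with the largest differences, and absent genes that define a list; a few genes that the rule names are not reported here, and others given by cells above 0 were chosen after their values were seen. Lengths were from GENCODE M21 and promoters from RefSeq, which are of another build than mm9. The alternatives were other pseudocounts, Dcn limits, detection levels, gene filters and sets of cells, 1 thinning to 1146945 reads, and CPM of recovered reads. Doublets were not called. Python 3.11.15, numpy 2.4.6, pandas 2.3.3, scipy 1.17.1 and matplotlib 3.10.9 were used.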

Additional observations from a re-analysis of the deposited data

How the results depend on the processing

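With only the 9 stromal and 24 other cells in the shared range of genes per cell, an alternative added after seeing the data, the number of members higher in stromal cells by 1 or more fell from 5 to 3 (Klf3, Klf4 and Klf6), 2 were lower (Klf2 and Klf7), and the median difference of the members was 0.47 compared with 1.66. By share, 1 member (Klf4) was then larger by 20 points or more and 1 (Klf7) smaller. The share of all genes called higher was 60.3% among genes above 0 in at least 10 cells, compared with 35.6%, and 25.4% with no filter. The number of members higher was 7 with a pseudocount of 0.1 (with Klf7 and Klf13), 4 with a pseudocount of 10 (without Klf10) and 6 at either other Dcn limit (with Klf13), and apart from the shared range it was otherwise 5. The number with a larger share was 5 at either other Dcn limit, where Klf13 passed 20 points (21 and 20.6), and apart from the shared range otherwise 4, although at 100 reads or more Klf6 (26.2) took the place of Klf10 (9.58). In all, 9 of 80 differences and 8 of 80 shares of single members changed side of the call, of which 4 each were in the shared range. The cause of these changes was not tested. No paired analysis was possible because all cells are of a single group.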

Other observations

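In a comparison chosen after the values were seen, Fos at 100 reads or more was counted in cells with and without each Klf gene at 100 reads or more. In stromal cells, Fos was in 12 of 12 cells with Klf2 and in 33 of 46 without, and likewise in 12 of 12 with Klf10 and 33 of 46 without. In other cells, Fos was in 6 of 6 with Klf2 and in 9 of 21 without, and in 2 of 3 with Klf10 and 13 of 24 without. For Klf4, the numbers in stromal cells were 39 of 49 with it and 6 of 9 without, and for Klf6 they were 33 of 41 and 12 of 17. They were 17 of 21 and 28 of 37 for Klf3, and 18 of 21 and 27 of 37 for Klf7. For Klf9 they were 23 of 28 and 22 of 30, and for Klf13 16 of 19 and 29 of 39. The share in stromal cells was thus larger with each member than without it. In other cells Klf7 went the other way, with 3 of 6 and 12 of 21. Stromal cells with Klf2 held a median of 3048 genes and those without 2777, whereas those with Klf10 held 2711 and those without 2866. No test was made, and the part of the number of genes in these counts was not tested. The same counts were not computed over all genes, so nothing particular to a member can be read from them.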
